A study of Mus musculus with 46 samples.

Results

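The mammalian genes for DNA methyltransferases and their hemimethylated-DNA readers Uhrf1 and Uhrf2 were followed through mouse germline stem (GS) cells, the pluripotent lines derived from them, and induced pluripotent stem (iPS) and embryonic stem (ES) cells. The 6 members, Dnmt1, Dnmt3a, Dnmt3b, Dnmt3l, Uhrf1 and Uhrf2, were taken by gene symbol from the probe annotation, and each had 1 probe set among the 19938 genes measured. GS cells are spermatogonia that self-renew in culture with glial cell line-derived neurotrophic factor and basic fibroblast growth factor, and multipotent germline stem (mGS) cells are the ES-like cells that can arise from them. The study measured 46 whole-transcript arrays from 23 lines in 8 groups, with 2 cultures of each line, and asked how the induced lines compare with other pluripotent cells.

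The Dnmt mGS lines (3) carried lentiviral knockdown of p53 and Dnmt1, and the Dmrt mGS lines (3) that of p53 and Dmrt1. The Sox2 mGS lines (3) and the Oct4 mGS lines (3) carried lentiviral Sox2 or Oct4, again with p53 knockdown. These 4 groups are called the induced routes below, and p53 knockdown was common to all of them. The mGS lines (2) arose spontaneously in GS culture, with no knockdown or transgene in their labels. GS cells (3 lines), all mGS types and the iPS lines (3, from retroviral c-myc, Klf4, Oct4 and Sox2) were of the DBA/2; GFP Tg strain. The 3 ES lines differed in strain: B6-6 was C57BL/6J, BRC1 was (B6xDBA2)x129 and R1 was a 129 hybrid. Culture 2 of ES R1 is R1 by its title and source name, while its description names R2. GS cells grew in StemPro-34 medium, and all other lines grew in serum with LIF. Every line was kept on mouse embryonic fibroblast feeders, and the feeders were depleted on gelatin before RNA was taken. Medium and state therefore cannot be told apart in any comparison with GS cells, nor can strain in those with ES cells. The labels give the cultures of a line as biological replicates and do not say whether a line is a single clone.

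In GS minus ES, 10 of 10 spermatogonial genes were higher and 9 of 10 naive pluripotency genes were lower. The mean level of the naive list was 2809 to 3901 in the Dnmt mGS lines, 1808 to 3289 in Dmrt mGS, 692 to 1855 in Sox2 mGS, 855 to 3227 in Oct4 mGS, 2267 and 3424 in mGS, 144 to 169 in GS, 2508 to 3649 in iPS and 2635 to 3641 in ES lines. The 4 lowest lines outside GS cells were Sox2 mGS 2 and 3 and Oct4 mGS 1 and 2. Values are linear intensities, and 161, the 95th percentile of 1027 olfactory receptor genes, is used as a background level. Array medians lay between 215 and 265. The highest, 265, belonged to culture 1 of Oct4 mGS 1, which stood apart from the other arrays. Below, a line's value is the geometric mean of its 2 cultures, and n counts lines. A gene is called changed at a Benjamini-Hochberg adjusted p under 0.05 in limma, fitted over all 23 lines and adjusted over all genes. Differences are on the log2 scale, given with their standard error. Fewer cells of a type and less RNA per cell cannot be told apart in these bulk samples.

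DNA methylation at CpG sites is copied after replication by Dnmt1, the maintenance methyltransferase, which Uhrf1 brings to hemimethylated DNA. Uhrf2 is a relative of Uhrf1 that also binds such DNA but does not replace it in maintenance. Dnmt3a and Dnmt3b methylate unmethylated DNA de novo, and Dnmt3l, which has no catalytic activity of its own, stimulates both. In the mouse male germ line Dnmt3l acts before birth and is required for methylation of imprinted regions and retrotransposons, and mouse ES cells in serum with LIF express both de novo enzymes and Dnmt3l.

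Promoter windows from RefSeq (GRCm38.p6; 250 bases before to 50 bases after a transcript start) are shown for the maintenance pair and for the members that were called higher over GS cells in most mGS types. All 6 members matched, with 13 windows in all. The windows of Dnmt1, chr9:20952574-20952873 on the minus strand, and of Uhrf1, chr17:56304063-56304362 on the plus strand, each hold 33 CpG sites, against a median of 7 over all 32851 windows. They are the richest of each gene: the windows at other transcript starts hold 12 and 2 in Dnmt1 and 12 in Uhrf1. All windows were searched on both strands for TTTCCCGC, TTTCGCGC, TTTGCCGC and TTTGGCGC, letters of the kind bound by E2F factors of the cell cycle, which 2.26% of all windows hold. Capitals mark the matches, 2 in Dnmt1 (one is TTTCGCGC on the opposite strand) and 1 in Uhrf1, and the other 11 windows of the members have none.
Dnmt1: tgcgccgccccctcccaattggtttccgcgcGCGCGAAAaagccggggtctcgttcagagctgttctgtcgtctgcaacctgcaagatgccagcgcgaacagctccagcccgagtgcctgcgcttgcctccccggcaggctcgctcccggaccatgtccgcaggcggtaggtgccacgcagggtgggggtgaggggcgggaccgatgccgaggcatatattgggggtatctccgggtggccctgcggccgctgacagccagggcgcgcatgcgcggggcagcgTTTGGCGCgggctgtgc
Uhrf1: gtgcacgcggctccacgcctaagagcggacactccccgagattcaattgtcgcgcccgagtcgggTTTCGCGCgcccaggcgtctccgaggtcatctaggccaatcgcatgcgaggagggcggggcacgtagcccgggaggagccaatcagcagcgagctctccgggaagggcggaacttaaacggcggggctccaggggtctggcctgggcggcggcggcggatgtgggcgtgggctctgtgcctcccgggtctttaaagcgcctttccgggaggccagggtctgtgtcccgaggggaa

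In the Dnmt3b window, chr2:153649199-153649498 on the plus strand, there are 30 CpG sites, and in that of Dnmt3l, chr10:78042037-78042336 on the plus strand, there are 6. The windows of Dnmt3l at its other transcript starts have 4 and 3. Capitals mark CG in both sequences.
Dnmt3b: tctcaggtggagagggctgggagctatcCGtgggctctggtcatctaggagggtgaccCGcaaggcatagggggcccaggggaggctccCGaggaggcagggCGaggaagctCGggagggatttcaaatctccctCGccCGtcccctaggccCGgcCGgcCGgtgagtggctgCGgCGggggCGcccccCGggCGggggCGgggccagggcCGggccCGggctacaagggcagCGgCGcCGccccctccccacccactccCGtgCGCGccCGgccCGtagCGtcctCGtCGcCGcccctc
Dnmt3l: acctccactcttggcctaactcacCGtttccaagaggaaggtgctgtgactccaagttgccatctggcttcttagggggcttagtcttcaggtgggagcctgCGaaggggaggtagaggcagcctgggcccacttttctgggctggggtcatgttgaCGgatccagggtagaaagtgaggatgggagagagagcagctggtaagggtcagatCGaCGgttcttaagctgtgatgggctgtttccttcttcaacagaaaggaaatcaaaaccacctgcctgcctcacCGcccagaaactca

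Matches are descriptions of these letters, and no methylation or binding was measured in the study.

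Dnmt1, the gene targeted in the Dnmt mGS lines, was low in 2 of their 3 lines. The gene lies at chr9:20907206-20959888 (GRCm38.p6). The cultures of Dnmt mGS 1 had 606 and 634, and those of Dnmt mGS 3 had 650.2 and 643. The cultures of the line labelled Dnmt mGS 2 had 2762 and 2742. Line 2 thus stood above all but 1 of the 9 lines of the other routes, while lines 1 and 3 stood below every other line of the series.

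Among the other lines, Dnmt1 had 2772, 2237 and 2336 in the Dmrt mGS lines 1 to 3. It had 2133, 2012 and 1934 in the Sox2 mGS lines, and 2158, 1994 and 2029 in the Oct4 mGS lines. The mGS lines had 2100.2 and 2045. The GS lines had 3132, 2904 and 3062, above every other line. It had 2149, 2145 and 1999 in the iPS lines, and 2117, 2393 and 2025 in ES R1, B6-6 and BRC1. Group means were 1340 ± 1223 in Dnmt mGS and 3033 ± 117 in GS cells (SD, n = 3 each). The SD in Dnmt mGS was close to its mean, with lines 1 and 3 low and line 2 high.

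With all 3 lines together, Dnmt1 was 1.55 ± 0.35 (log2) lower in Dnmt mGS than in GS cells (limma, adjusted p = 0.0012). It was 1.07 ± 0.28 lower than in the mean of the other 3 routes (limma, adjusted p = 0.018). The second call was lost when only the groups compared were fitted (adjusted p = 0.078), as was the first (adjusted p = 0.065). The call against the other routes was lost too without Dnmt mGS 1 (-0.70, adjusted p = 0.17) or Dnmt mGS 3 (-0.73, adjusted p = 0.087). Without the line labelled Dnmt mGS 2 the difference from the other routes was -1.77.

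Each line was then set against the other routes on its own, its lone value being assumed to vary like the lines of other groups. Dnmt1 was 1.80 ± 0.11 lower in Dnmt mGS 1 (limma, adjusted p = 3.0e-07) and 1.74 ± 0.11 lower in Dnmt mGS 3 (limma, adjusted p = 1.0e-06). In the line labelled Dnmt mGS 2 it was 0.35 ± 0.11 higher and not called (limma, adjusted p = 0.093; 0.38 and adjusted p = 0.018 without Dmrt mGS 1). These single-line comparisons called 2 of 6 members in line 1, where 3.37% of all genes were called. In line 2, 0 of 6 members were called beside 0.732% of all genes, and in line 3, 1 of 6 beside 0.371%. The 3 comparisons share the lines of the other routes.

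Dnmt mGS lines 1 and 3 stood 3.49 and 3.35 times below the mean of the other routes, which leaves both far above the background level of 161. Against the pluripotent references the 3 lines together gave -1.02 ± 0.35 against iPS (limma, adjusted p = 0.084), -1.07 ± 0.35 against ES (adjusted p = 0.053) and -1.004 ± 0.39 against mGS (adjusted p = 0.16), none of them called. Without the line labelled Dnmt mGS 2 these were -1.73, -1.78 and -1.71, past the threshold, but that line is singled out by its own Dnmt1 level. Without Dnmt mGS 1 or 3 the differences were smaller than those of all 3 lines, down to -0.65, -0.70 and -0.64, and not called.

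**Figure D1:**
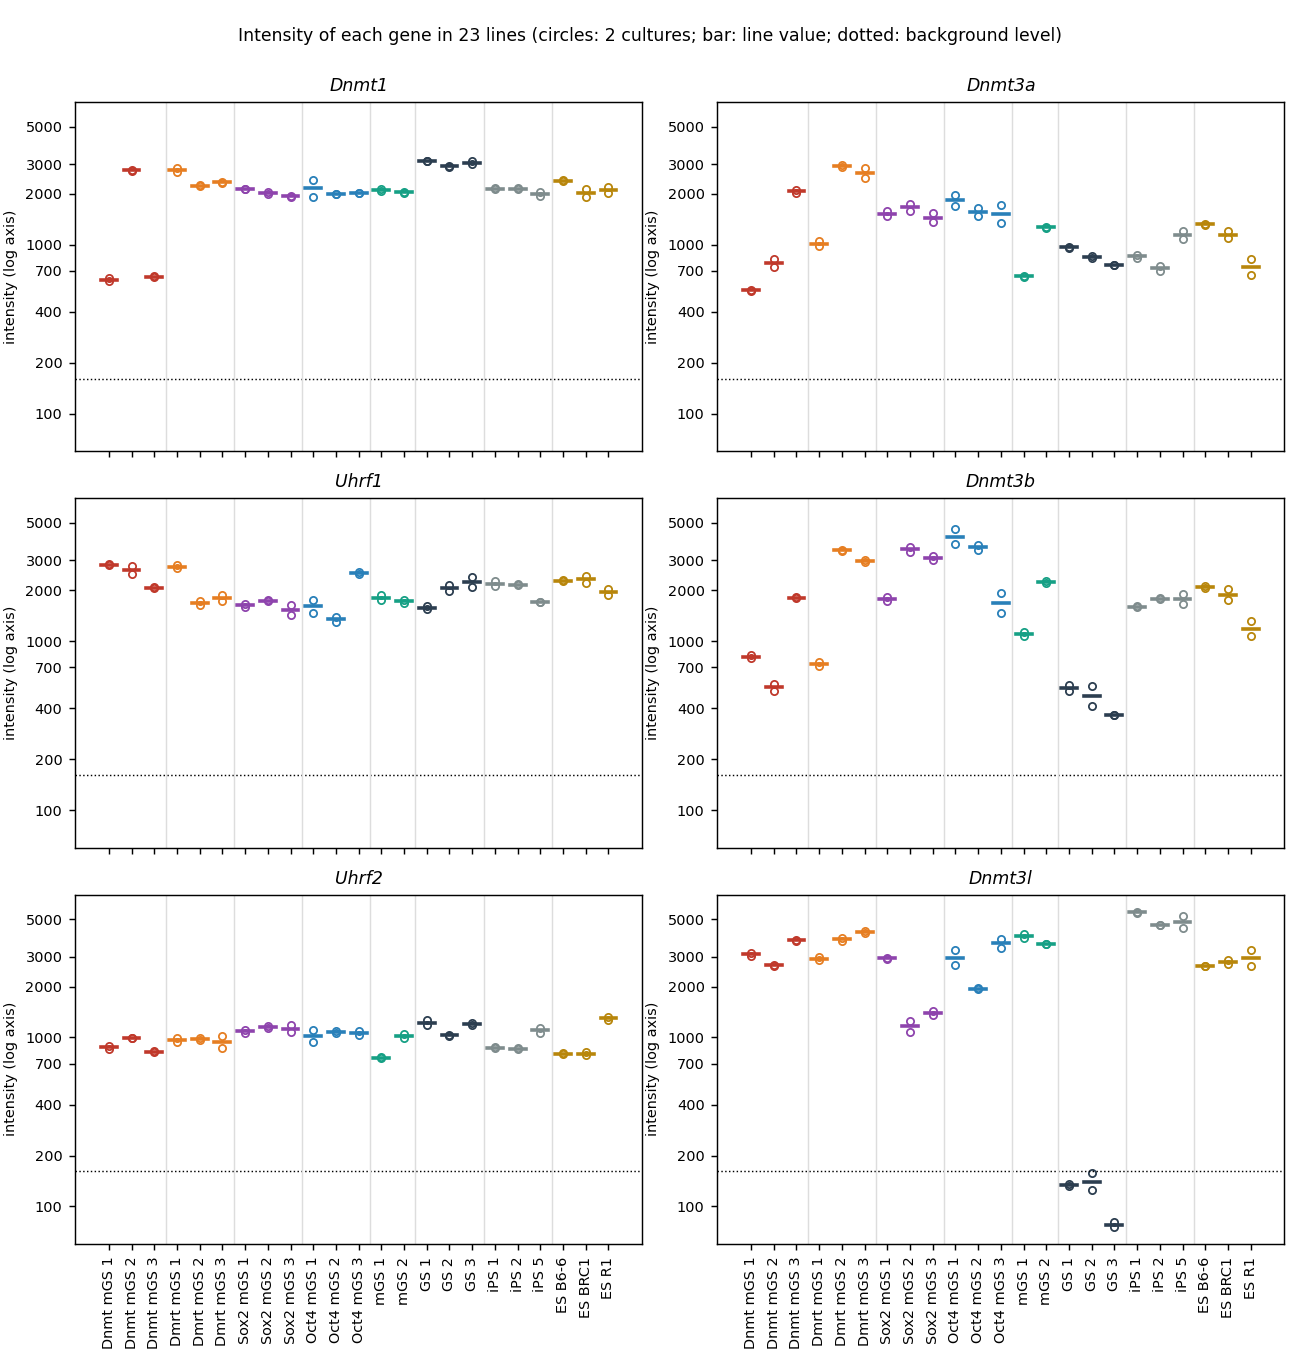
Intensity of the 6 members in 23 lines (log axis, 1 panel a gene). Circles are the 2 cultures of a line, the bar is the line's value and the dotted line is the background level of 161. Dnmt1 is low in Dnmt mGS 1 and 3 and not in line 2, and Dnmt3l lies below background in the GS lines alone.

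GS cells had more Dnmt1 transcript than every line of the other 7 groups. On the log2 scale it was 0.48 ± 0.35 higher in GS than in ES cells and 0.53 ± 0.35 higher than in iPS cells. Minus GS, the mGS lines gave -0.55 ± 0.39, the Dmrt mGS lines -0.31 ± 0.35, the Sox2 mGS lines -0.58 ± 0.35 and the Oct4 mGS lines -0.56 ± 0.35. In the fit over 8 groups none of these 6 differences was called (limma, adjusted p = 0.28, 0.20, 0.26, 0.50, 0.19 and 0.21). That fit shares 1 estimate of spread over all groups, the Dnmt mGS lines included. When each Dnmt mGS line was a group of its own, a choice made after seeing the data, all 6 were called (limma, adjusted p = 0.00026, 9.0e-05, 0.00025, 0.0077, 4.3e-05 and 6.7e-05). These comparisons share the GS lines.

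Uhrf1, which guides Dnmt1 to replicated DNA (chr17:56303337-56323486), was not called in any of the 22 comparisons. Dnmt mGS lines 1 to 3 had 2830, 2622 and 2074. The 9 lines of the other routes ran from 1343 to 2754 with a median of 1681. The mGS lines had 1804 and 1721, the GS lines 1577, 2067 and 2243, the iPS lines 2190.4, 2148 and 1699.8, and ES R1, B6-6 and BRC1 had 1951, 2282 and 2318. Dnmt mGS 1 was the highest of the 23 lines, above Dmrt mGS 1 with 2754. Uhrf1 in Dnmt mGS minus the other routes was 0.47 ± 0.17 (limma, adjusted p = 0.063). Without Dnmt mGS 3, Dmrt mGS 1 or Oct4 mGS 3 it passed the threshold, at 0.60, 0.54 and 0.56. These lines are singled out by their own Uhrf1 level. Dnmt mGS 3 had the least of its group, and Dmrt mGS 1 (2754) and Oct4 mGS 3 (2530) the most of the other routes. The other 9 fits that left out a line gave no call. The line labelled Dnmt mGS 2, with Dnmt1 not lowered, had nearly as much Uhrf1 as line 1, and line 3, with low Dnmt1, was within the range of the other routes. Whether Uhrf1 depends on Dnmt1 was not tested.

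Uhrf2 (chr19:30030430-30093726) had the narrowest range of the 6 in fold terms, between 761 and 1298 over the 23 lines. It had 874, 993 and 823 in the Dnmt mGS lines, 936 to 1155 in the other routes, 761 and 1018 in mGS and 1226, 1033 and 1205 in GS cells. It had 872, 859 and 1102 in iPS, and 1298, 803 and 802 in ES R1, B6-6 and BRC1. The Dnmt mGS lines did not overlap the GS lines, yet the difference of -0.37 ± 0.15 was not called (limma, adjusted p = 0.059). It was called without the line labelled Dnmt mGS 2 (-0.44, adjusted p = 0.048). In GS minus ES, Uhrf2 was 0.29 ± 0.15 (limma, adjusted p = 0.14), and 0.52 with adjusted p = 0.0026 without ES R1, the line with the conflicting label. ES R1 is also singled out by its own Uhrf2 level, with 1268 in culture 1 and 1329 in culture 2. The other 5 fits that left out a line gave no call. GS, Sox2 mGS and Oct4 mGS headed the order of group means, and GS and Sox2 mGS overlapped.

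Dnmt3l, the cofactor of the de novo enzymes, gave the largest difference of the family: it was high in every line outside GS cells and below background in GS cells. Dnmt3l (chr10:78042287-78063622) had 3097, 2672 and 3758 in the Dnmt mGS lines, 2922, 3806 and 4216 in the Dmrt mGS lines, and 3971 and 3555 in the mGS lines. The Sox2 mGS lines had 2936, 1162 and 1390.2, and the Oct4 mGS lines 2968, 1946 and 3600.0. GS 1 had 135 and 132 in its cultures, GS 2 had 125 and 157, and GS 3 had 80.6 and 75.3. These 6 cultures lay below the background level of 161, and every culture of the other 20 lines lay at 1071 or more. The iPS lines had 5498, 4643 and 4803, and ES R1, B6-6 and BRC1 had 2961, 2651 and 2803.

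No fold against GS cells is exact, since they give only a bound. Over GS cells, Dnmt3l was at least 19.5-fold higher in the Dnmt mGS lines and at least 22.4-fold in the Dmrt mGS lines. It was at least 10.4-fold higher with Sox2, at least 17.1-fold with Oct4 and at least 23.3-fold in the mGS lines. Adjusted p-values in limma were 4.3e-10, 2.5e-10, 7.3e-09, 7.5e-10 and 1.4e-09. GS cells were at least 30.8-fold lower than iPS and at least 17.4-fold lower than ES cells (limma, adjusted p = 7.5e-11 and 6.7e-10). These calls held without any single line, and all of them share the GS lines.

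iPS lines carried the most Dnmt3l, and none of them overlapped a line of another group. In iPS minus ES the difference was 0.83 ± 0.29 and not called (limma, adjusted p = 0.24). Sox2 mGS was 1.56 ± 0.29 lower than iPS (limma, adjusted p = 0.0016) and 0.91 ± 0.24 lower than the mean of the other routes (adjusted p = 0.019). Sox2 mGS 1, at 2936, was like the other routes, and lines 2 and 3 held the lowest values outside GS cells. The second call was lost without Sox2 mGS 2 (-0.64) or Sox2 mGS 3 (-0.77), and with only the groups compared (adjusted p = 0.069).

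Dnmt3b, a de novo enzyme of the early embryo (chr2:153649411-153687730), was also lowest in GS cells. Dnmt mGS lines 1 to 3 had 807, 534 and 1804. Dmrt mGS lines had 733, 3435 and 2988, Sox2 mGS lines 1777, 3504 and 3097, and Oct4 mGS lines 4139, 3581 and 1679.8. The mGS lines had 1097 and 2241, the GS lines 526, 474 and 366, the iPS lines 1601, 1780.0 and 1776, and ES R1, B6-6 and BRC1 had 1183, 2092 and 1881. No line of another group overlapped GS cells, though the line labelled Dnmt mGS 2 came within a few units of GS 1.

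Relative to GS cells, Dnmt3b was 2.12 ± 0.52 higher in the Dmrt mGS lines, 2.57 ± 0.52 with Sox2, 2.70 ± 0.52 with Oct4 and 1.80 ± 0.59 in the mGS lines (limma, adjusted p = 0.0030, 0.00057, 0.00038 and 0.019). In Dnmt mGS it was 1.03 ± 0.52 and not called (adjusted p = 0.11). The mGS call was lost without mGS 2 (1.28) or GS 3 (1.65). GS cells were 1.89 ± 0.52 lower than ES and 1.93 ± 0.52 lower than iPS cells (limma, adjusted p = 0.0067 and 0.0050). Dnmt mGS was 1.43 ± 0.43 lower than the mean of the other routes (limma, adjusted p = 0.029). Without Dnmt mGS 1, Dnmt mGS 2 or Dmrt mGS 3 the last call was lost (-1.34, -1.04 and -1.33), as it was when only the groups compared were fitted (adjusted p = 0.087).

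Taken line by line, Dnmt3b differed from the other routes by -1.62 ± 0.63 in Dnmt mGS 1, by -2.22 ± 0.63 in the line labelled Dnmt mGS 2 and by -0.46 ± 0.63 in Dnmt mGS 3. None was called (limma, adjusted p = 0.14, 0.073 and 0.82). Without Dmrt mGS 1 the first and the second were called (-1.86 and -2.46, adjusted p = 0.014 and 0.0027), and without Oct4 mGS 3 the second was (-2.35, adjusted p = 0.033). Dmrt mGS 1 (733) and Oct4 mGS 3 (1679.8) had the least Dnmt3b of the 9 lines of the other routes, so both are singled out by their own level. The lowest Dnmt3b level of the 3 Dnmt mGS lines belonged to the line in which Dnmt1 was not low. That line also had the lowest mean level of feeder genes of the 3 (176, given below). The cause was not tested.

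Dnmt3a, the other de novo enzyme (chr12:3801559-3914443), varied widely within the Dnmt mGS and Dmrt mGS lines (SD of log2 levels 1.01 and 0.84, n = 3 each) and little within Sox2 mGS, Oct4 mGS and GS cells (0.10, 0.14 and 0.18, n = 3 each). Dnmt mGS lines had 536, 777 and 2070.3. Dmrt mGS lines had 1016, 2916 and 2662, Sox2 mGS lines 1523, 1662 and 1447, and Oct4 mGS lines 1827, 1561 and 1517. The mGS lines had 649 and 1265, the GS lines 963, 848 and 755, the iPS lines 855, 726 and 1139.8, and ES R1, B6-6 and BRC1 737, 1321 and 1142. Every Sox2 and Oct4 mGS line lay above every mGS, GS, iPS and ES line. Dnmt mGS 1 had the least of the 23 lines, while Dnmt mGS 3, also low in Dnmt1, exceeded 7 of the 9 lines of the other routes.

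Dnmt3a was called in 2 comparisons of the fits over all lines. It was 1.23 ± 0.42 higher in Dmrt mGS than in GS cells (limma, adjusted p = 0.026), a call lost without GS 2 (1.22), GS 3 (1.14), Dmrt mGS 2 (0.95) or Dmrt mGS 3 (1.02), and with only the groups compared (adjusted p = 0.055). Sox2 mGS minus GS (0.86) and Oct4 mGS minus GS (0.94) were called with only the groups compared (limma, adjusted p = 0.00082 and 0.0021) and with each Dnmt mGS line a group of its own (0.049 and 0.033). It was 1.67 ± 0.43 lower in Dnmt mGS 1 than in the other routes (limma, adjusted p = 0.045), a call lost in 7 of the 9 fits that left out a line. In Dnmt mGS 2 it was -1.14 ± 0.43 and in Dnmt mGS 3 0.28 ± 0.43 (adjusted p = 0.13 and 0.85). All 3 lines together gave -0.84 ± 0.34 (limma, adjusted p = 0.086), which passed the threshold without Dnmt mGS 3 (-1.41) or Dmrt mGS 1 (-1.01). These 2 lines are singled out by their own Dnmt3a level, the highest of Dnmt mGS and the lowest of the other routes. The other 10 fits that left out a line gave no call.

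**Figure D2:**
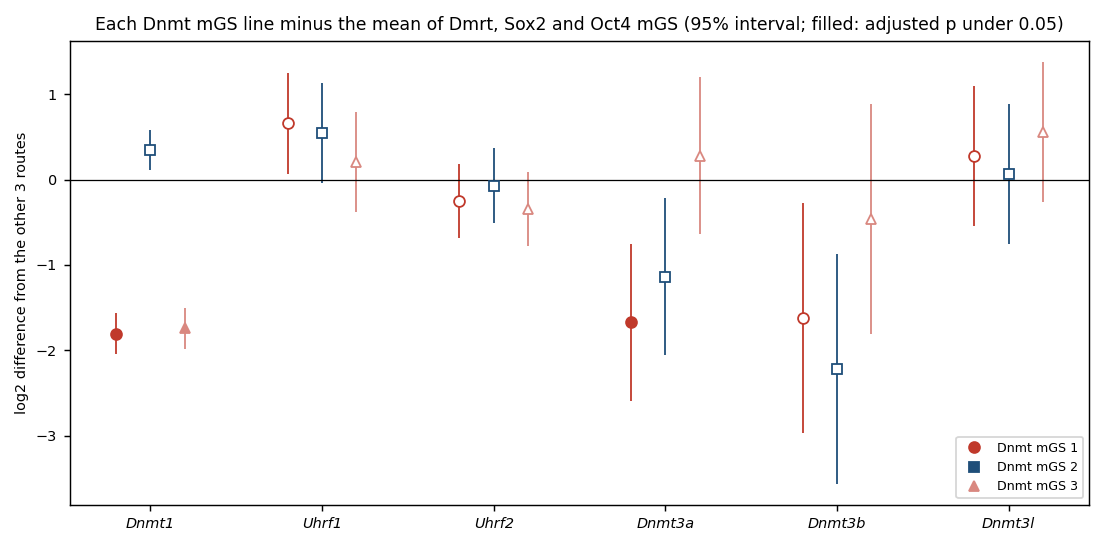
Log2 difference of each Dnmt mGS line from the mean of the other 3 routes for the 6 members, with 95% intervals. Filled points passed an adjusted p of 0.05: Dnmt1 in lines 1 and 3 and Dnmt3a in line 1.

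In comparisons with GS cells the share of members called was near or below that of all genes. For Dnmt mGS minus GS 2 of 6 members were called, with 49.1% of all genes, and in Dmrt mGS minus GS 3 of 6, with 41.6%. The counts were 2 of 6 in Sox2 mGS minus GS (44% of all genes), Oct4 mGS minus GS (42.9%), mGS minus GS (43.1%), GS minus ES (43.2%) and GS minus iPS (54%). Between pluripotent groups 1 of 6 was called in Sox2 mGS minus iPS (23.6%). None was called in Dnmt mGS minus iPS (6.87%), Dmrt mGS minus iPS (0.848%), Oct4 mGS minus iPS (13.8%), Dnmt mGS minus ES (11.4%), Dnmt mGS minus mGS (2.73%) or iPS minus ES (0.627%).

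In mGS minus iPS none was called either, where limma called 0% of all genes, with 225 genes at an unadjusted p under 0.05. Against the mean of the other routes, 2 of 6 were called in Dnmt mGS (19.2% of all genes), 1 of 6 in Sox2 mGS (14.2%), and 0 in Dmrt mGS (0.316%) and Oct4 mGS (1.06%). The single-line comparisons given above called Dnmt1, the targeted gene, and in line 1 Dnmt3a.

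**Figure D3:**
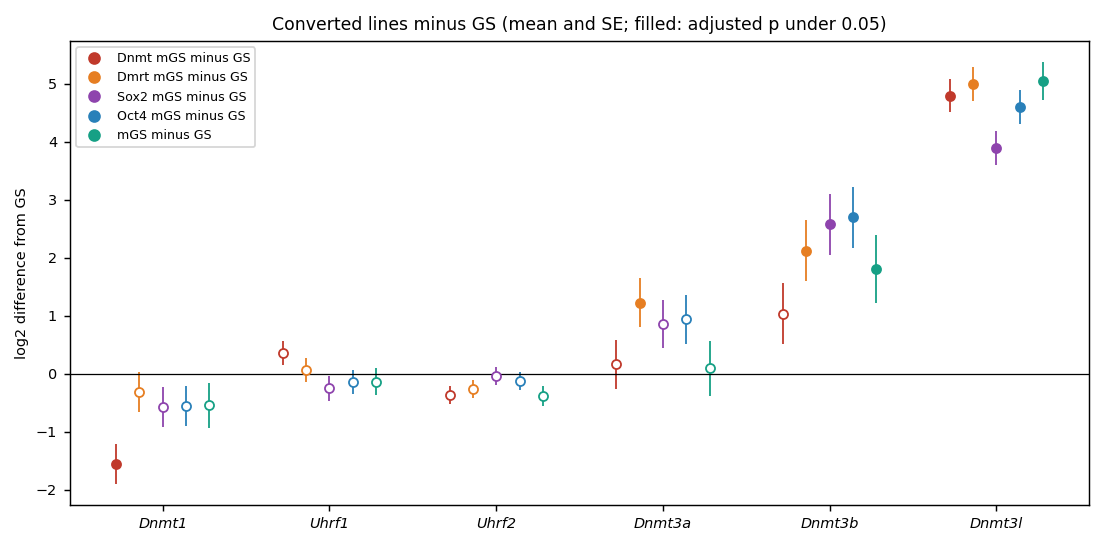
Log2 difference from GS cells with its standard error for the 6 members in the 4 induced routes and mGS. Filled points passed an adjusted p of 0.05. Dnmt3l lies near 4 to 5 in every type as a fitted value, since GS cells were below background, and Dnmt1 lies below 0 in every type.

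Levels of Dnmt3b and Dnmt3a moved with those of feeder and primed epiblast genes, whose lists were taken as markers of other cells the samples could hold. The feeder list (17 of 18 genes measured) had a mean level of 347, 176 and 1188 in Dnmt mGS 1 to 3. In the 9 lines of the other routes it ran from 180.3 in Dmrt mGS 1 to 1789 in Sox2 mGS 3. It was 256 and 833 in mGS 1 and 2, 189 to 599.9 in GS cells, 254 to 368 in iPS and 316 to 1013 in ES cells. The primed list (8 of 9 measured) was 580.1, 458 and 773 in the Dnmt mGS lines, 399.6 to 2097 in the other routes, and 195.5 to 217.5 in GS cells. Dmrt mGS 1 and Dnmt mGS 2, the lowest lines outside GS in both lists, were also the lowest outside GS in Dnmt3b. In each group 14 to 16 of the 17 feeder genes had a mean above background.

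Over the 20 lines outside GS, Dnmt3b correlated with the feeder list at r = 0.81 (Spearman's rho 0.80, and r = 0.72 over 18 lines without the 2 farthest) and with the primed list at r = 0.86 (rho 0.86, r = 0.82). Dnmt3a correlated with the feeder list at r = 0.73 (rho 0.74, r = 0.73) and less with the primed list, at r = 0.53 (rho 0.60, r = 0.50). Uhrf1 ran the other way, at r = -0.87 with the primed list (rho -0.90, r = -0.84) and r = -0.64 with the feeder list (rho -0.69, r = -0.50). Dnmt3l had r = -0.47 with the feeder list (rho -0.40, r = -0.62). With the naive list r was -0.76 for Dnmt3b (rho -0.86, r = -0.74), -0.57 for Dnmt3a (rho -0.81, r = -0.62), 0.75 for Uhrf1 (rho 0.78, r = 0.75) and 0.73 for Dnmt3l (rho 0.43, r = 0.52). All points of a pair share arrays and cultures, so these are descriptions. With the feeder level as a covariate, Dnmt3b in Dnmt mGS minus the other routes shrank to -0.71 and was no longer called (limma, adjusted p = 0.068), while in Dnmt mGS minus GS it was 0.70 and called (adjusted p = 0.035). In Dnmt mGS minus iPS it was -1.19 and called with the covariate (adjusted p = 0.0064), against -0.90 and not called without it (adjusted p = 0.34). The part of the primed genes in the result was not tested.

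**Figure D4:**
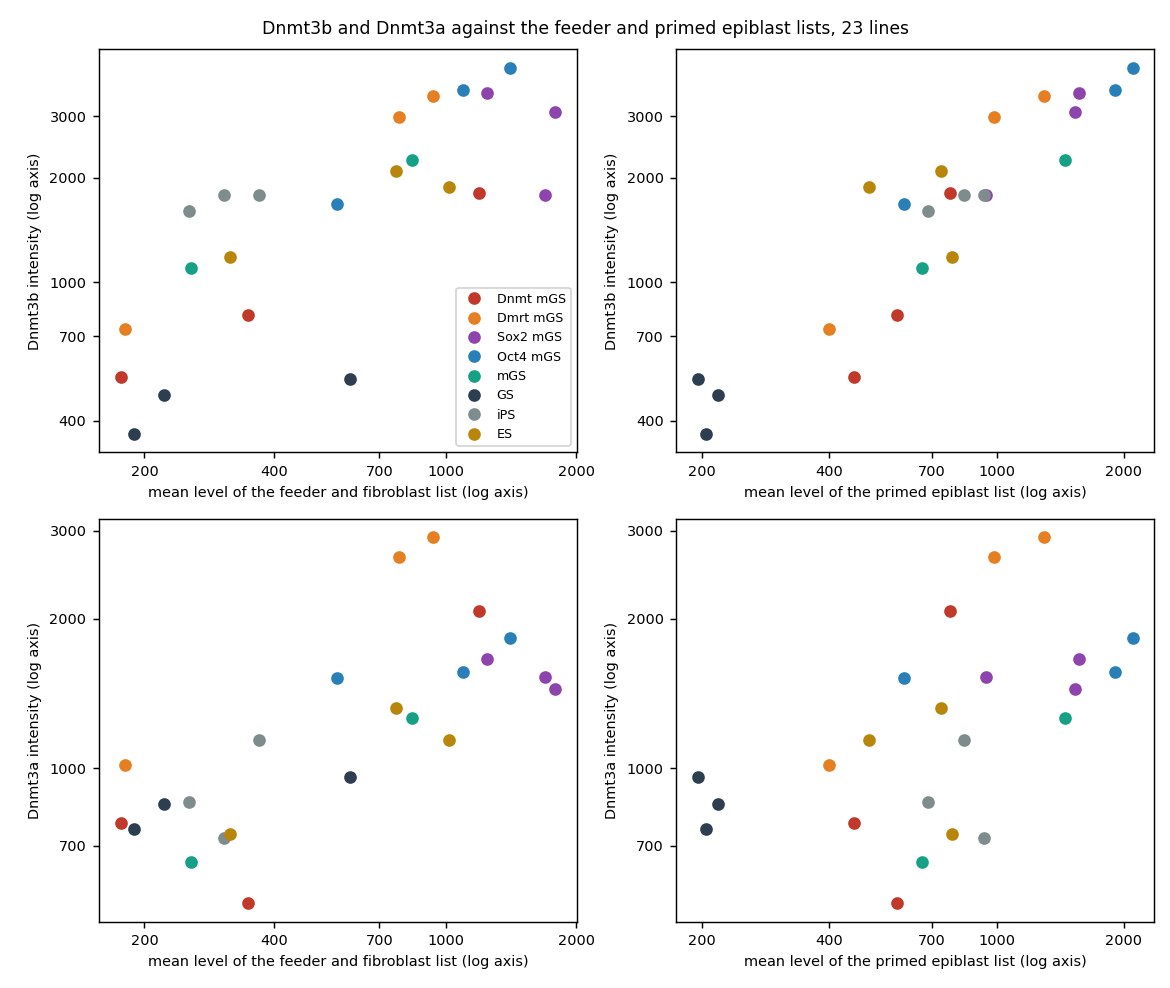
Dnmt3b and Dnmt3a intensity of each line against the mean level of the feeder list and the primed epiblast list (log axes). Outside GS cells, lines with more feeder or primed signal have more Dnmt3b, and GS lines lie lowest in Dnmt3b.

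Beside the list counts below, the share of all genes called was 43.2% in GS minus ES and 49.1% in Dnmt mGS minus GS. It was 19.2% in Dnmt mGS minus the other routes. Of the genes that act with or on Dnmt1 and Uhrf1, 1 of them an inhibitor (12 measured), 4 were higher and 3 lower in GS than in ES cells (list median 0.02, all genes 0.09). Cdca7l and Cdca7, relatives of a protein that in frog extracts activates the remodeller HELLS, were 1.35 ± 0.36 and 0.74 ± 0.09 higher, and Ehmt2, a histone H3 lysine methyltransferase, 1.07 ± 0.11 higher. Dppa3, which in mouse oocytes keeps Uhrf1 out of the nucleus, was 1.39 ± 0.52 lower (limma, adjusted p = 0.0048, 2.6e-06, 3.1e-07 and 0.038). From the same list 2 rose and 5 fell in Dnmt mGS minus GS (median -0.15, all genes -0.13), led by Cdca7l at -2.69 ± 0.36. Against the other routes 2 rose and 2 fell (median 0.05, all genes -0.06). Dppa3 was 1.28 ± 0.42 higher and Cdca7l 0.91 ± 0.29 lower (limma, adjusted p = 0.044 and 0.039).

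Genes that oxidise methylcytosine or remove it (9 of 11 measured) showed 1 rise and 4 falls in GS minus ES (median -0.45). Tet1, a dioxygenase, averaged 138 in GS cells, below background, and was at least 31.9-fold lower than in ES cells. Tet2 averaged 101 in GS cells and was at least 9.70-fold lower. Tet3 was 1.49 ± 0.12 higher in GS cells (limma, adjusted p = 4.4e-14, 7.3e-07 and 1.7e-08 for Tet1, Tet2 and Tet3). Of these genes 4 rose and 2 fell in Dnmt mGS minus GS (median 0.31), with Tet1 at least 36.4-fold and Tet2 at least 12.1-fold higher and Tet3 1.41 ± 0.12 lower. Against the other routes Tet2 was 1.07 ± 0.35 higher and Tet3 0.44 ± 0.10 lower (limma, adjusted p = 0.044 and 0.0087), with the other 7 not called (median 0.23).

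Readers of methyl-CpG (7 of 8 measured) had 3 rises and 1 fall in GS minus ES (median 0.40). Zbtb33, the zinc finger protein Kaiso, was 2.09 ± 0.31 higher and Mbd3, of the NuRD complex, 0.98 ± 0.23 lower (limma, adjusted p = 2.0e-05 and 0.0019). Of the readers 3 fell and 0 rose in Dnmt mGS minus GS (median 0.13), Zbtb33 by 2.65 ± 0.31 on the log2 scale. None was called against the other routes (median -0.08). Guides of de novo methylation and protectors of imprints (10 of 12 measured) had 3 rises and 5 falls in GS minus ES (median -0.33). Piwil4, the nuclear piRNA-binding protein of mouse fetal germ cells, was at least 9.02-fold higher in GS cells, and Zfp57, which protects imprints, 2.26 ± 0.23 lower (limma, adjusted p = 8.7e-11 and 2.6e-07). Among the guides 4 rose and 3 fell in Dnmt mGS minus GS (median 0.20), Zfp57 rising by 2.64 ± 0.23. Against the other routes Zfp57 was 0.71 ± 0.19 higher and Ctcf, an insulator protein, 0.33 ± 0.09 lower (limma, adjusted p = 0.018 and 0.016; median 0.02).

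Germline genes that promoter methylation silences in mouse somatic cells (15 measured) were taken as a further list. In comparison with the other routes 10 rose and 0 fell in Dnmt mGS, with a list median of 0.73 against -0.06 for all genes, of which 19.2% were called in either direction. In the same comparison 5 of 10 naive pluripotency genes rose and 0 fell (median 1.06), among them Nanog at 0.63 ± 0.18 and Esrrb at 1.73 ± 0.59 (limma, adjusted p = 0.026 and 0.048). That count was 0 without Dnmt mGS 1, 1 without the line labelled Dnmt mGS 2, and up to 7 without other lines. Genes called in fits that left out a line numbered 542 to 5434 of 19938, against 3830 with all lines. The part of the naive genes in the germline result was not tested. Slc25a31, a mitochondrial ADP/ATP carrier of male germ cells, averaged 605 in Dnmt mGS and 156 in the other routes, at least 3.76-fold higher. Dazl, an RNA-binding protein of germ cells, averaged 1208 in Dnmt mGS and 373 in the other routes, 1.70 ± 0.42 higher. Stk31 averaged 316 in Dnmt mGS and 98.8 in the other routes, at least 1.96-fold higher, and Asz1, a piRNA pathway protein, 223 in Dnmt mGS and 59.9 in the other routes, at least 1.38-fold higher (limma, adjusted p = 0.00067, 0.012, 0.0044 and 0.0014). Tex101 and Taf7l, also called, lay below background in both groups.

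The mean level of the germline list was 336, 428 and 281 in Dnmt mGS 1 to 3, highest in the line labelled Dnmt mGS 2. It was 318 in Dmrt mGS 1, 224 in Dmrt mGS 2 and 3, and 136 to 201 in the Sox2 and Oct4 mGS lines. The mGS lines had 145 and 148, the GS lines 3699, 3337 and 2956, the iPS lines 139.6 to 222 and the ES lines 213 to 248. Taken singly, line 1 had 3 of 15 genes called higher (Asz1, Slc25a31 and Sycp1), line 2 had 4 (those and Stk31), and line 3 had 1 (Tex101), with none lower. Without the line labelled Dnmt mGS 2, 6 of 15 were called against the other routes, and without Dnmt mGS 1 also 6. With each of the 12 lines of the routes left out in turn the count ran from 6 to 11, always with 0 lower. Over the same 12 fits the number called among all 19938 genes ran from 542 to 5434, in either direction. Relative to GS cells 13 of 15 fell in Dnmt mGS and 0 rose (median -3.73).

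Proliferation genes (19 of 20 measured), many of them E2F targets, gave 1 rise and 10 falls in GS minus ES (median -0.29, all genes 0.09). In that comparison 43.2% of all genes were called. Ccne1 was 2.71 ± 0.16 lower, and E2f1, the 1 rise, was 0.54 ± 0.20 higher. Dnmt1 was highest in GS cells but not called there (limma, adjusted p = 0.28), and Uhrf1 was not called. Over the 20 lines outside GS the list level correlated with Dnmt1 at r = 0.53 (rho 0.56, r = 0.48 over 18 lines) and with Uhrf1 at r = 0.51 (rho 0.49, r = 0.41). Of the proliferation genes 9 rose and 2 fell in Dnmt mGS minus GS (median 0.18). Against the other routes 0 rose and 2 fell (median -0.02). The list level was 1943, 2307 and 1914 in Dnmt mGS 1 to 3.

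By Pearson correlation of log2 levels over the 20 lines outside GS, the gene most like Dnmt1 was Sdad1, with r = 0.96. Sdad1, a relative of the yeast protein Sda1, had 357, 1020.1 and 393 in Dnmt mGS 1 to 3, 822 to 1160 in the other 17 lines outside GS, and 1494, 1371 and 1344 in GS cells. Over the 17 lines without GS and Dnmt mGS, r fell to 0.37, so the likeness rests on Dnmt mGS 1 and 3. Golga7 (r = 0.85, and 0.21 over 17 lines) and Myo10 (0.84 and 0.29) came next. Over all 23 lines r was 0.96 for Sdad1, 0.81 for Golga7 and -0.06 for Myo10.

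For Dnmt3b the most alike were Thbs3, Sox4 and Cdk2ap1 (r = 0.96 each, and 0.97, 0.94 and 0.94 over 17 lines). Sox4 did not keep this with GS cells included (r = 0.20 over 23 lines, against 0.86 for Thbs3 and 0.90 for Cdk2ap1). For Dnmt3a they were Speg, Slc4a3 and Ptprg (0.86, 0.86 and 0.85, and 0.84, 0.64 and 0.81 over 23 lines). For Dnmt3l they were Sec14l1, Sgk2 and Lrrc2 (0.91, 0.91 and 0.89, and 0.66, 0.74 and 0.97 over 23 lines). For Uhrf1 they were Cdk2, Gprc5a and Atp1b1 (0.95, 0.93 and 0.92, and 0.79, 0.83 and 0.58). For Uhrf2 they were Spryd7, Snx25 and Lgalsl (0.88, 0.85 and 0.83, and 0.86, 0.77 and 0.78). Among the members, Dnmt3a and Dnmt3b ran together (r = 0.75 over 20 lines) and Dnmt3b and Uhrf1 ran opposite (r = -0.76). Dnmt1 and Uhrf1 had r = -0.19. These coefficients come from the same arrays and are descriptions.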

How the data were processed

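Per the labels' protocols, total RNA was converted with a whole-transcript kit and read on Affymetrix arrays. The authors deposited 1 table of linear intensity for 28856 probe sets on 46 arrays. Its scaling was not given in the sources used here. Assembly mm9 is named in the submitters' processing notes. Log2 was taken with no further scaling. Probe sets with 1 gene symbol (21789) were kept, and the brightest on average stood for a gene (19938 genes). Cultures of a line were averaged, so p-values measure the spread between lines.

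One limma fit (3.58.1 under R 4.3.3, moderated by eBayes, with 15 residual degrees of freedom) over 23 lines gave 19 comparisons, and a second gave 3 of single Dnmt mGS lines, each with Benjamini-Hochberg adjustment over all genes. On simulated data for Dnmt mGS minus the other routes (19938 genes), 86.6% of 2-fold changes were recovered. That rate is not one for the members. Their standard errors in this comparison ran from 0.13 for Uhrf2 to 0.43 for Dnmt3b. How often a 2-fold change in a given member would be called was not tested, so a member not called may still differ by that much. Where 1 group lay below background, the fold is a bound, the brighter mean over that level. The number of arrays limits precision. Named genes are the members, called genes of each list, mostly the leading ones, and the 3 genes most correlated with each member over 20 lines. Of the naive genes called in Dnmt mGS minus the other routes, Nanog and Esrrb were not picked by rank. The members and lists were chosen with earlier results of these data known. Alternatives were other treatments of the arrays, normalization, dim genes, blocks, a feeder covariate and single lines left out. Protein sequences were not used here.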

Additional observations from a re-analysis of the deposited data

Results flagged for a closer look

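Of 48 sets of arrays looked at, the 6 members in 8 groups, chance would mark about 5%, and 2 arrays stood far from the others of their group. Culture 1 of Oct4 mGS 1 had a Dnmt1 intensity of 2424, against 1921 to 2032 in the other 5 Oct4 mGS arrays; that array also had the highest median of all 46. Culture 2 of ES R1 had a Dnmt3l intensity of 3293, against 2650.4 to 2888 in the other ES arrays; its description names R2, while its title and source name give R1.

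The effect of the route differed between groups, by a test of the difference itself, for 3 results: Dnmt1 in Dnmt mGS minus the other routes (-1.07), Dnmt3b in the same comparison (-1.43) and Dnmt3l in Sox2 mGS minus the other routes (-0.91). Each call was lost without either of 2 lines of its route: Dnmt mGS 1 or 3 for Dnmt1 (-0.70 and -0.73), Dnmt mGS 1 or 2 for Dnmt3b (-1.34 and -1.04), and Sox2 mGS 2 or 3 for Dnmt3l (-0.64 and -0.77). That for Dnmt3b was also lost without Dmrt mGS 3 (-1.33). With only the groups compared all 3 calls were lost (limma, adjusted p = 0.078, 0.087 and 0.069).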

How the results depend on the processing

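Of 448 alternative values for 24 results, 393 kept their side of the threshold, 9 lost a call, 46 gained one and 0 changed sign while called. Values that were not called could change sign. Dnmt3a in Dnmt mGS minus GS (0.16) ran from -0.40 to 0.58 without single lines. With 46 arrays as independent samples, the line as a random block, or the culture number as a replicate block, log2 values stayed as in the report and calls were gained (adjusted p in that order) by Uhrf2 in GS minus ES (0.29; 0.016, 0.047, 0.044), Dnmt3b (1.03; 0.0094, 0.015, 0.017) and Uhrf2 (-0.37; 0.0024, 0.011, 0.0098) in Dnmt mGS minus GS, Dnmt1 in Dnmt mGS minus iPS (-1.02; 0.00070, 0.0020, 0.0023), ES (-1.07; 0.00029, 0.00078, 0.00094) and mGS (-1.004; 0.0033, 0.0087, 0.0099), and Dnmt3a (-0.84; 0.0027, 0.0066, 0.0072) and Uhrf1 (0.47; 0.0012, 0.0054, 0.0062) in Dnmt mGS minus the other routes. With independent arrays alone Uhrf1 in Dnmt mGS minus GS (0.36, 0.026) and Uhrf2 in Dnmt mGS minus the other routes (-0.22, 0.030) gained one. The fits named so far take arrays, not lines, as samples. Independent arrays count both cultures of a line as separate samples, which understates the spread between lines. For Dnmt1, cultures of a line differed by a median of 0.026 (log2), against an SD of 1.22 between the Dnmt mGS lines. Calls in the report rest on the fits over lines. The clone number as a replicate block gave Uhrf2 -0.37 (0.011) in Dnmt mGS minus GS. Deviations of same-numbered cultures had a median r of 0.0025 over 253 pairs of lines (-0.44 to 0.39). Those of same-numbered lines had a median of 0.085 over 52 pairs (-0.64 to 0.79). With such ranges, whether either number pairs the samples was not settled.

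With only the groups compared, Dnmt1 in GS minus ES was called (0.48, adjusted p = 0.0090; 0.00026 with each Dnmt mGS line a group of its own), as was Uhrf2 in Dnmt mGS minus GS (-0.37, 0.042). Calls of Dnmt1 in Dnmt mGS minus GS (-1.55, 0.065) and of Dnmt1 (-1.07, 0.078) and Dnmt3b (-1.43, 0.087) in Dnmt mGS minus the other routes were lost. The feeder covariate gave Dnmt3b 0.70 (0.035) and Uhrf1 0.46 (0.029) in Dnmt mGS minus GS, Dnmt1 -1.20 (0.019) in Dnmt mGS minus ES, and Dnmt3b -0.71 (0.068) against the other routes. Dnmt1 in Dnmt mGS minus ES was called after quantile normalization (-1.10, 0.047) and without the 40% dimmest genes (-1.07, 0.041). The causes were not tested.

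Leaving out single lines, values ran from 0.17 to 0.52 for Uhrf2 in GS minus ES, -0.44 to -0.31 (-0.4433 to -0.305) for Uhrf2 in Dnmt mGS minus GS, -1.73 to -0.65 for Dnmt1 in Dnmt mGS minus iPS, -1.78 to -0.70 for ES and -1.71 to -0.64 for mGS. Against the other routes they ran from -1.77 to -0.70 for Dnmt1, -1.41 to -0.43 for Dnmt3a, -1.92 to -1.04 for Dnmt3b, 0.38 to 0.60 for Uhrf1, and 0.32 to 0.38 for Dnmt1 in the line labelled Dnmt mGS 2. Genes called in Dnmt mGS minus the other routes numbered 3830, and 1622 to 8946 under other settings (542 to 5434 without single lines). Of these 3830, 1765 were higher and 2065 lower, against 1847 higher and 1179 lower after centring each array. Genes called in Dnmt mGS minus iPS ranged over 819 to 5189 (1369 in the report's fit) and in iPS minus ES over 22 to 2318 (125). The number of lines limits what can be called, and signal under the background level limits Dnmt3l in GS cells.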
